A study of Mus musculus with 11 samples.

Results

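Trp53, the gene for the transcription factor p53, and 9 genes that p53 is known to bind and activate were followed across 4 genotypes of NIH/3T3, a long-established fibroblast line from mouse embryos. The 10 genes were taken by symbol from a count table of 21684 genes: Trp53, Mdm2, Ccng1, Sesn2, Phlda3, Bax, Bbc3, Eda2r, Trp53inp1 and Zmat3. All 10 were in the table and all 10 passed the filter on low counts, as did 13332 genes in all. RNA-seq was done on 11 libraries: WT with 2, and the knockouts (KO) of Xap5, Nono and Sox5 with 3 each. The stated aim of the series was to find the genes that these 3 factors control while the primary cilium forms. Every group, WT included, was seeded sparsely, grown for 24 h with serum and then kept for 24 h without it, so no serum-fed cells were compared here. The labels name no clones, so each KO was taken as 1 line, and the p-values measure the spread between these libraries, which may be technical.

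The p53 protein is held low in unstressed cells because Mdm2, a ubiquitin ligase that is itself a p53 target, marks it for degradation. DNA damage and other stresses stabilise p53, which then binds a pair of short half-sites near its targets and raises genes for cell cycle arrest, DNA repair, metabolic restraint and cell death. Because this control acts mostly on the protein, the Trp53 RNA level alone does not report p53 activity. NIH/3T3 cells are known to lack the Cdkn2a locus, whose Arf product inhibits Mdm2.

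The start of each gene was searched for the p53 half-site motif, since p53 acts on a direct target by binding such sites, some of which lie close to the start. Windows of 250 bases before to 50 bases after the start came from RefSeq (GRCm38.p6). They were at hand for 8 of the 10 genes, all but Trp53inp1 and Zmat3. A pair of half-sites was counted when it had at most 3 mismatches over its 20 bases, a spacer of 0 or 1 base and the fixed C and G of each half-site. The motif is its own reverse complement, so a single search covers both strands. Such a pair was found for 4 of the 8 genes with a window (Ccng1, Bax, Bbc3 and Trp53) and for Cdkn1a, the gene of the cell cycle inhibitor p21. Of all 32851 windows, 2.82% held one, 0.682% held one with at most 2 mismatches and 0.11% held one with at most 1. These shares are per window and not per gene, and a gene can have several windows (Bbc3 has 3 and Cdkn1a 2). The pairs are printed on the strand of the gene, with 15 flanking bases on each side and the half-sites in capitals.
Ccng1: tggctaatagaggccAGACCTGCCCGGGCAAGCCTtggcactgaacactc
Cdkn1a: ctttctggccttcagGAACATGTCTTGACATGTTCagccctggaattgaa
Bax: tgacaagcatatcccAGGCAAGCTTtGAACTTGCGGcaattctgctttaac
Bbc3: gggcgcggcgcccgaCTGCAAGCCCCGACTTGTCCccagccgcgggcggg
Trp53: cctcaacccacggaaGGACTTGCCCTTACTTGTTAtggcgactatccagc
The Ccng1 stretch lies at chr11:40755447-40755496 on the minus strand and its pair has 1 mismatch. The Cdkn1a stretch lies at chr17:29090913-29090962 on the plus strand, also with 1 mismatch. The Bax stretch, at chr7:45467064-45467114 on the minus strand, has 2 mismatches and a spacer of 1 base. The Bbc3 stretch at chr7:16309471-16309520 and the Trp53 stretch at chr11:69580269-69580318, both on the plus strand, have 3 mismatches each. All 5 pairs lie before the start that their own window is placed on, the nearest being that of Cdkn1a, from base -51 to base -32. Only pairs with at most 3 mismatches in the first half-site were scored. The best of these had 10 mismatches in the other window of Cdkn1a, and 8 and 9 in the other windows of Bbc3. Neither gene thus has such a pair at every annotated start. A match is a description of these letters and not evidence of binding, and p53 sites that lie further from a start were outside the windows.

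Libraries held between 30205878 and 43498383 counts, with the Sox5 KO libraries lowest (30205878 to 32788225). Levels below are depth-scaled counts (CPM) computed on library sizes adjusted with edgeR's TMM factors. In the KO of Xap5, whose mouse symbol is Fam50a, Fam50a RNA was at 11.7% to 12.4% of the WT mean, and Nono RNA in Nono KO at 7.78% to 9.60%. Sox5 RNA in Sox5 KO was at 26.3% to 29.1% but fell in the other knockouts too, to as low as 14.7%, so its level does not single out the Sox5 KO libraries. All 10 fibroblast markers on a fixed list (Col1a1, Vim and others) were detected in every group. Their summed level was 24068 to 24145 CPM in WT, 19432 to 20673 in Xap5 KO, 49841 to 54740 in Nono KO and 20614 to 21126 in Sox5 KO. The marker Fn1 was the largest part of the sum in every group, and single markers moved in different directions. In Xap5 KO, mean Fn1 was 8894 CPM against 13960 in WT, while mean Sparc was 1356 against 485. The 5 epithelial markers summed to at most 0.323 CPM, with Krt8 and Krt18 at 0 in all 11 libraries. The 4 muscle markers summed to 0 to 0.204 CPM in WT, 1.78 to 3.86 in Xap5 KO, 0.974 to 1.16 in Nono KO and 1.48 to 2.17 in Sox5 KO, nearly all of it Des in the knockouts, while Myod1 and Myf5 were at 0 throughout. The 4 endothelial markers summed to 1.41 to 2.79 CPM in Nono KO, mostly Tek, and to at most 0.772 in the other groups. The 5 blood markers summed to 7.75 to 11.6 CPM in Nono KO, mostly Ptprc, and to 2.56 to 5.28 in the other groups. The share of mitochondrial counts was highest in Xap5 KO (7.89% to 10.3%, against 6.20% to 6.28% in WT). The part of these differences in the results below was not tested.

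Called genes among the 10 moved in both directions in each knockout, with more rises than falls in Nono and Sox5 KO and a near-even split in Xap5 KO. Which genes were called differed from knockout to knockout. In these bulk libraries, fewer cells expressing a gene and less RNA per cell cannot be told apart. A gene was called when its p from edgeR's quasi-likelihood test, adjusted by Benjamini-Hochberg over all 13332 tested genes, was under 0.05. In Xap5 KO against WT, 4 of the 10 rose and 3 fell, 7 in all, while 45.5% of all tested genes were called. In Nono KO, 5 rose and 1 fell, beside 48.6% of all tested genes. In Sox5 KO, 6 rose and 2 fell, beside 60.9%. By direction, 23.2%, 23.5% and 30.6% of all tested genes rose in Xap5, Nono and Sox5 KO, and 22.3%, 25.1% and 30.3% fell. The median log2 fold change of the 10 genes was -0.02, 0.25 and 0.26 in the same order, beside 0.00, -0.02 and -0.01 over all tested genes.

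By their medians, the sizes of change in these genes were above those of all genes in Xap5 KO, close to them in Nono KO and below them in Sox5 KO. The median absolute log2 fold change was 0.41, 0.33 and 0.35 in Xap5, Nono and Sox5 KO, beside 0.32, 0.34 and 0.50 over all tested genes. With a change of at least 1.5-fold also required, 4, 2 and 3 of the 10 genes were called, beside 19.5%, 21.7% and 34.9% of all tested genes. The ranges of CPM did not overlap between KO and WT for 8, 8 and 9 of the 10 genes, beside 63.7%, 65.5% and 75.8% of all tested genes. The split by direction depended on scaling. With library totals in place of TMM factors, the median of all genes was -0.05, -0.18 and -0.12 in Xap5, Nono and Sox5 KO, beside 0.00, -0.02 and -0.01 with TMM factors. The split then became 3 higher and 3 lower in Xap5 KO, 4 and 3 in Nono KO, and 5 and 4 in Sox5 KO. Relative to the median change of each gene's chromosome it was 3 and 2, 7 and 0, and 6 and 1, and with a length and GC correction it was 4 and 2, 5 and 0, and 7 and 3.

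**Figure D1:**
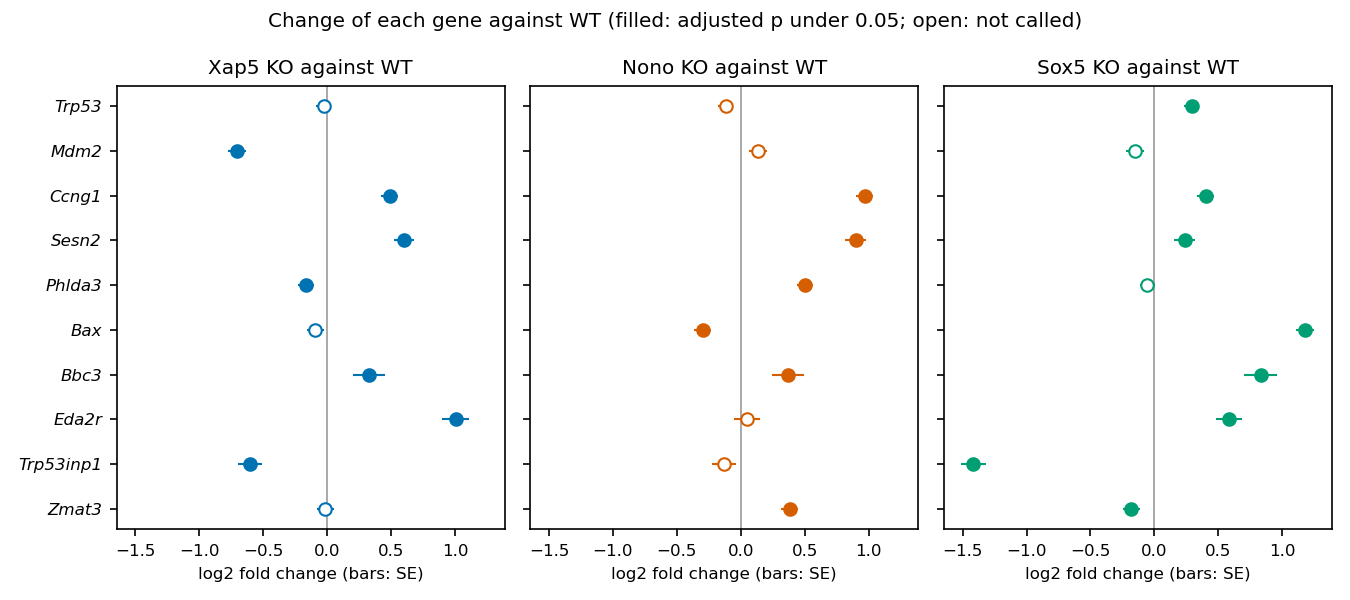
Log2 fold change of each gene against WT (x axis, bars are the SE of edgeR's fit) in the Xap5, Nono and Sox5 KO, with filled points for an adjusted p under 0.05 and open points for genes not called. Ccng1, Sesn2 and Bbc3 lie to the right in all 3 panels, while Bax lies at 1.18 in Sox5 KO and at -0.30 in Nono KO.

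Across the knockouts, 3 of the 10 genes rose in all 3 (Ccng1, Sesn2 and Bbc3), as did 8.33% of all tested genes. None of the 10 fell in all 3, which 7.61% of all tested genes did. Phlda3, Bax and Zmat3 were called in both directions, higher in one knockout and lower in another, as were 14.8% of all tested genes. Of the remainder, Eda2r rose in 2 knockouts and Trp53inp1 fell in 2, while Trp53 and Mdm2 were each called in 1. The 3 comparisons share the same 2 WT libraries, so a deviation in those libraries enters all of them. With library totals in place of TMM factors, the calls of Bbc3 in Xap5 and Nono KO (0.27 and 0.20) and of Sesn2 in Sox5 KO (0.12) were lost.

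Trp53 itself rose in Sox5 KO alone of the 3 knockouts, by less than 1.5-fold. Its level was 184 and 172 CPM in the WT libraries, 179, 180.1 and 165 in Xap5 KO, 162, 168 and 164 in Nono KO, and 223, 213 and 218 in Sox5 KO. Every Sox5 KO library lay above every other library, and the Xap5 KO libraries overlapped both WT and Nono KO. The log2 fold change in Sox5 KO was 0.29 (SE 0.0594, edgeR adjusted p = 0.000226). In Xap5 KO it was -0.03 (SE 0.0589, edgeR adjusted p = 0.734) and in Nono KO -0.12 (edgeR adjusted p = 0.111), and with library totals the Nono KO value was -0.28 and called. Relative to the median change of chromosome 11, which holds Trp53, the Sox5 KO value was 0.15 (edgeR adjusted p = 0.0440). A processed pseudogene of Trp53 is annotated but is not in the table, so reads shared with it cannot be told apart.

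**Figure D2:**
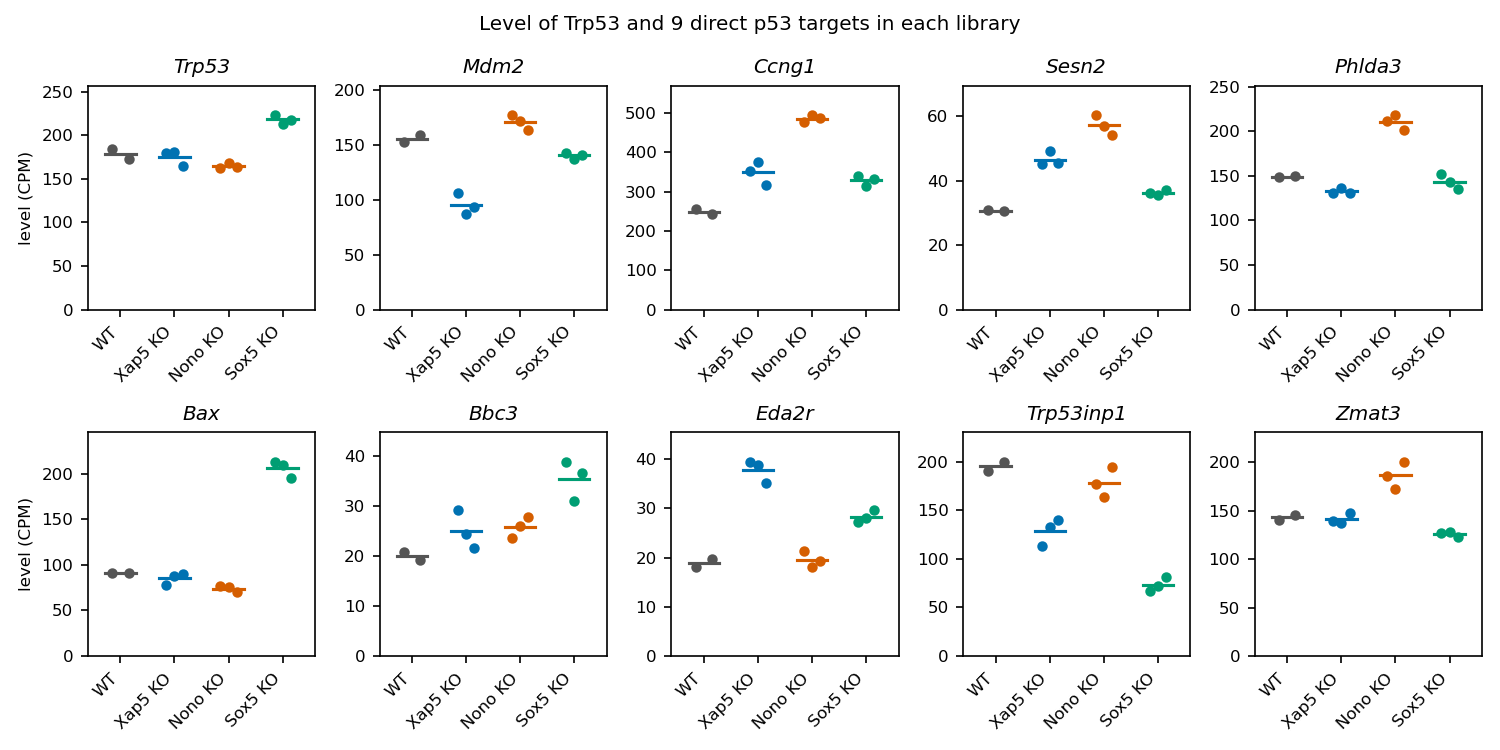
Level in CPM (y axis, from 0) of each gene in every library by group, with 1 point per library and a line at the group mean. Bax stands out in Sox5 KO (195 to 213 CPM), Trp53inp1 is lowest there (66.6 to 81.4 CPM), and Mdm2 is lowest in Xap5 KO (87.4 to 106 CPM).

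The genes that feed back on p53 moved apart from each other. Mdm2 fell in Xap5 KO, while Ccng1, the gene of cyclin G1, which recruits the phosphatase PP2A to Mdm2, rose in every knockout. Mdm2 levels were 153 and 159 CPM in the WT libraries, 106, 87.4 and 93.1 in Xap5 KO, 177, 172 and 164 in Nono KO, and 143, 138 and 141 in Sox5 KO. The 4 groups did not overlap, in the order Nono KO, WT, Sox5 KO and Xap5 KO from high to low. The fall in Xap5 KO was -0.71 (SE 0.0692, edgeR adjusted p = 3.8e-08), which is 1.63-fold. The values in Nono KO (0.13, edgeR adjusted p = 0.122) and Sox5 KO (-0.15, edgeR adjusted p = 0.0685) were not called. The Sox5 KO value was called with library totals (-0.26, edgeR adjusted p = 0.00188), with the length and GC correction (-0.21, edgeR adjusted p = 0.0136) and with at least 10 counts required in every library (-0.16, edgeR adjusted p = 0.0448). With only the 2 groups compared in the fit, both were called (0.16 in Nono KO, edgeR adjusted p = 0.0272, and -0.16 in Sox5 KO, edgeR adjusted p = 0.0210), and with library totals the Nono KO value was -0.030. Genes on chromosome 10, which holds Mdm2, had a median log2 fold change of -0.46 in Xap5 KO. Relative to that median Mdm2 was at -0.23 in Xap5 KO (edgeR adjusted p = 0.0151). In Nono KO it was then at 0.26 and called (edgeR adjusted p = 0.00541), and in Sox5 KO at 0.15 and not called. Without Xap5 KO replicate 1 or 2 in the fit, the Sox5 KO value of -0.16 was called.

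Ccng1, which has the pair with 1 mismatch printed above, had 255 and 242 CPM in WT. Its level was 353, 376 and 318 CPM in Xap5 KO, 477, 495 and 487 in Nono KO, and 339, 315 and 332 in Sox5 KO. All 9 KO libraries lay above both WT libraries, Nono KO was highest without overlap, and Xap5 and Sox5 KO overlapped. The log2 fold change was 0.97 in Nono KO (SE 0.0673, edgeR adjusted p = 1.33e-10). It was 0.49 in Xap5 KO (SE 0.0663, edgeR adjusted p = 3.47e-06) and 0.40 in Sox5 KO (SE 0.0662, edgeR adjusted p = 2.04e-05). Relative to the median of chromosome 11 the Sox5 KO value was 0.26 and still called (edgeR adjusted p = 0.00273).

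Of the genes that restrain growth signalling, Sesn2 rose in all 3 knockouts and Phlda3 rose in Nono KO. Sesn2 encodes sestrin 2, a leucine sensor that holds back mTORC1 and is also raised by amino acid and other stress pathways. Its level was 30.9 and 30.5 CPM in WT, 45.2, 49.0 and 45.3 in Xap5 KO, 60.3, 57.0 and 54.3 in Nono KO, and 36.1, 35.5 and 37.0 in Sox5 KO. No 2 groups overlapped, and WT was lowest. The log2 fold change was 0.90 in Nono KO (SE 0.0824, edgeR adjusted p = 1.02e-08) and 0.60 in Xap5 KO (SE 0.0818, edgeR adjusted p = 3.74e-06). It was 0.24 in Sox5 KO (SE 0.0818, edgeR adjusted p = 0.0161), and this call was lost without WT replicate 1 (edgeR adjusted p = 0.0712) or WT replicate 2 (edgeR adjusted p = 0.0968). Relative to the median of chromosome 4 the Sox5 KO value was 0.48.

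Phlda3 encodes a small protein that competes with Akt for membrane lipids. Its level was 148 and 149 CPM in WT, 131, 137 and 131 in Xap5 KO, 212, 218 and 202 in Nono KO, and 152, 143 and 135 in Sox5 KO. The Nono KO libraries lay above all others, and the Sox5 KO libraries spanned the range of WT. The rise in Nono KO was 0.50 (SE 0.0618, edgeR adjusted p = 8.48e-07). The fall in Xap5 KO was small, -0.16 (SE 0.0611, edgeR adjusted p = 0.0331). It was no longer called without either WT library (edgeR adjusted p = 0.0947 and 0.127), without Xap5 KO replicate 1 or 3 (0.0535 and 0.0532), with a length and GC correction (-0.06) or relative to the median of chromosome 1 (-0.11). In Sox5 KO it was at -0.05 (edgeR adjusted p = 0.462), and was called at -0.19 with the length and GC correction and at -0.17 with library totals.

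Among the genes for cell death, Bax carried the largest rise of the 10 genes in any knockout, in Sox5 KO. Bax forms the pore in the outer mitochondrial membrane that commits a cell to apoptosis. Its level was 91.3 and 90.6 CPM in WT, 78.5, 87.9 and 89.7 in Xap5 KO, 76.7, 75.4 and 69.7 in Nono KO, and 213, 210.1 and 195 in Sox5 KO. The lowest Sox5 KO library was above every other library by a wide margin, and the Nono KO libraries lay below all others. The log2 fold change was 1.18 in Sox5 KO (SE 0.0707, edgeR adjusted p = 6.47e-12), which is 2.27-fold, and 0.99 relative to the median of chromosome 7. It was -0.30 in Nono KO (SE 0.0685, edgeR adjusted p = 0.00108), a call that was lost relative to the median of chromosome 7 (-0.12, edgeR adjusted p = 0.174) and with the length and GC correction (-0.17, edgeR adjusted p = 0.0545). In Xap5 KO it was -0.09 (edgeR adjusted p = 0.294). Bax overlaps the gene Gm45808 on the same strand, which was listed at 0 counts in all libraries.

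Bbc3 encodes PUMA, a BH3-only protein that frees Bax from its inhibitors. Its level was 20.8 and 19.1 CPM in WT, 29.2, 24.3 and 21.6 in Xap5 KO, 23.5, 25.9 and 27.8 in Nono KO, and 38.8, 30.97 and 36.6 in Sox5 KO. Every KO library lay above both WT libraries, and Sox5 KO lay above Nono KO and Xap5 KO, which overlapped. The rise in Sox5 KO was 0.83 (SE 0.126, edgeR adjusted p = 7.44e-06), and 0.64 relative to the median of chromosome 7. The rises in Nono KO (0.37, SE 0.125, edgeR adjusted p = 0.0192) and Xap5 KO (0.33, SE 0.125, edgeR adjusted p = 0.0371) rested on single libraries. Without WT replicate 2 the Nono KO call was lost (0.31, edgeR adjusted p = 0.143), as it was without Nono KO replicate 3 (0.31, edgeR adjusted p = 0.0662). The Xap5 KO call was lost without WT replicate 1 (0.38), WT replicate 2 (0.26), Xap5 KO replicate 1 (0.19) or Xap5 KO replicate 2 (0.34), with DESeq2 (0.32), with only those 2 groups in the fit (0.32) and relative to chromosome 7 (0.31, edgeR adjusted p = 0.0511). The length and GC correction gave 0.70 in Nono KO and 0.53 in Xap5 KO.

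Eda2r encodes the receptor of ectodysplasin A2, a member of the TNF receptor family. Its level was 18.1 and 19.7 CPM in WT, 39.5, 38.9 and 35.3 in Xap5 KO, 21.3, 18.0 and 19.4 in Nono KO, and 27.2, 28.1 and 29.7 in Sox5 KO. Xap5 KO was highest and Sox5 KO next, both clear of WT, while Nono KO overlapped WT. The rise was 1.00 in Xap5 KO (SE 0.103, edgeR adjusted p = 7.03e-08) and 0.58 in Sox5 KO (SE 0.102, edgeR adjusted p = 4.38e-05). In Nono KO the value was 0.05 (edgeR adjusted p = 0.723), and -0.11 with library totals. Genes of the X chromosome, which holds Eda2r, had medians of 0.36 in Xap5 KO and -0.33 in Nono KO. Relative to those medians Eda2r was at 0.65 in Xap5 KO and at 0.43 in Nono KO, where it was then called (edgeR adjusted p = 0.00120).

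Trp53inp1 carried the largest fall of the 10 genes, in Sox5 KO. It encodes a stress-induced protein that acts with p53 in the nucleus and in autophagy. Its level was 191 and 200.01 CPM in WT, 113, 132 and 140 in Xap5 KO, 177, 164 and 194 in Nono KO, and 66.6, 71.8 and 81.4 in Sox5 KO. Sox5 KO was lowest and Xap5 KO next, both clear of WT, while Nono KO overlapped WT. The fall was -1.42 in Sox5 KO (SE 0.0945, edgeR adjusted p = 1.35e-09), which is 2.67-fold, and -0.61 in Xap5 KO (SE 0.0937, edgeR adjusted p = 5.56e-05). Across the alternatives other than leaving out a single library, the Sox5 KO value ran from -1.53 to -1.10. Genes on chromosome 4, which holds Trp53inp1, had a median of -0.25 in Sox5 KO. The Nono KO value of -0.13 was not called (edgeR adjusted p = 0.271), but was called at -0.30 with library totals and at -0.20 with a replicate block (edgeR adjusted p = 0.0212).

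Zmat3 encodes a zinc finger protein that binds RNA and influences splicing. Its level was 140.03 and 146 CPM in WT, 139, 137 and 148 in Xap5 KO, 186, 172 and 200.4 in Nono KO, and 127, 128 and 123 in Sox5 KO. Nono KO lay above all other libraries and Sox5 KO below all others, and Xap5 KO spanned WT. The rise in Nono KO was 0.38 (SE 0.0652, edgeR adjusted p = 5.15e-05). The Sox5 KO value was -0.18 (SE 0.0648, edgeR adjusted p = 0.0206), and its direction was not stable. It was 0.044 relative to the median of chromosome 3 and 0.35 with the length and GC correction, where it was called as a rise (edgeR adjusted p = 0.000148), and the call was lost without WT replicate 2 (-0.15) or Sox5 KO replicate 3 (-0.16). In Xap5 KO it was -0.01.

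The knockouts were also compared with each other, which tests directly where they differ. Between Nono and Sox5 KO all 10 genes were called, beside 63.5% of all tested genes. Of these, 6 were higher and 4 lower in Nono KO, beside 30.9% and 32.6%. The CPM ranges were apart for all 10, beside 69.1%, and 3 differed by at least 1.5-fold, beside 34.6%. Bax was 2.79-fold lower in Nono KO than in Sox5 KO (-1.48, SE 0.0624, edgeR adjusted p = 2.15e-14). Trp53inp1 was 2.43-fold higher (1.28, SE 0.0872, edgeR adjusted p = 1.43e-09) and Trp53 lower (-0.41, SE 0.0529, edgeR adjusted p = 8.08e-07). Relative to the chromosome medians 7 of the 10 were called in this pair, 5 higher and 2 lower. With the length and GC correction Zmat3 went from 0.56 to 0.080 and was not called (edgeR adjusted p = 0.251).

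Between Xap5 and Nono KO 8 of the 10 genes were called, beside 53% of all tested genes. In Xap5 KO 2 were higher and 6 lower, beside 27.1% and 25.9%. The ranges were apart for 8, beside 57.9%, and 3 were called with at least 1.5-fold, beside 22.2%. Mdm2 was lower (-0.84, SE 0.0630, edgeR adjusted p = 4.28e-10), as was Phlda3 (-0.66, SE 0.0549, edgeR adjusted p = 1.88e-09). Eda2r was 1.94-fold higher (0.95, SE 0.0899, edgeR adjusted p = 1.42e-08). Relative to the chromosome medians 0 were higher and 6 lower in this pair, and with library totals 3 were higher and 6 lower.

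Between Xap5 and Sox5 KO 8 were called, beside 61.6% of all tested genes, with 4 higher and 4 lower in Xap5 KO, beside 31.1% and 30.4%. The ranges were apart for 8, beside 67%, and 2 were called with at least 1.5-fold, beside 31.5%. Bax was 2.42-fold lower in Xap5 KO (-1.27, SE 0.0619, edgeR adjusted p = 3.14e-13) and Trp53inp1 higher (0.81, SE 0.0868, edgeR adjusted p = 4.85e-07). Ccng1 did not pass the test in this pair (0.09, SE 0.0586, edgeR adjusted p = 0.208). It was called as higher in Xap5 KO relative to the chromosome median (0.23, edgeR adjusted p = 0.00285), with library totals (0.15, edgeR adjusted p = 0.0304) and without Xap5 KO replicate 3 (0.15, edgeR adjusted p = 0.0239). Relative to the chromosome medians 2 were higher and 4 lower, and with the length and GC correction 3 were higher and 5 lower.

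Per kilobase of the longest annotated transcript, the WT levels of the 10 genes spanned a wide range. Phlda3 was highest at 104 CPM per kb, followed by Bax at 82.7, Ccng1 at 70.8, Trp53 at 54.4 and Mdm2 at 49.5. Trp53inp1 stood at 36.0, Zmat3 at 18.3, Bbc3 at 11.0, Sesn2 at 8.83 and Eda2r at 3.98 CPM per kb. The genes with the smallest levels per length thus include 2 of the 3 that rose in all knockouts, Sesn2 and Bbc3. In Sox5 KO the Bax level was 187 ± 8.83 CPM per kb (SD, n = 3), above that of Phlda3 (99.9 ± 5.93).

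How alike the 10 genes were across libraries was described by Pearson's r of log2 CPM over the 11 libraries. These form 4 groups that share genotype and culture, so they are not 11 independent points. Over the 45 pairs of genes r ran from -0.90 to 0.95 with a median of 0.03, and 20 pairs were negative. The highest were Trp53 with Bax (0.95), Ccng1 with Sesn2 (0.93) and Phlda3 with Zmat3 (0.85). The lowest was Mdm2 with Eda2r (-0.90), followed by Bax with Trp53inp1 and Trp53 with Trp53inp1 (both -0.89). Among all other tested genes the 5 most like Trp53 were Gatad2a (0.98), Sart1, Vps4a, Cdr2l and Zfpl1 (each 0.97). Those most like Mdm2 were P3h3 (0.98), Pak1, Bnc1, Tcf25 and Wnt11 (each 0.97).

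**Figure D3:**
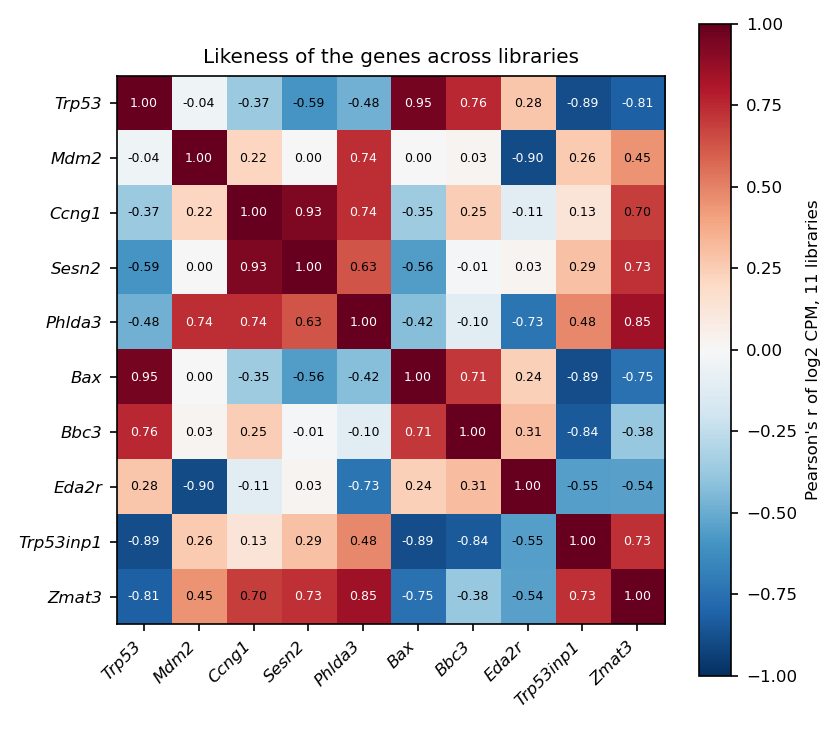
Pearson's r of log2 CPM for each pair of the 10 genes over 11 libraries, coloured from blue (-1) to red (1) with the value in each cell. Red and blue cells are mixed: r is 0.95 for Trp53 with Bax and -0.90 for Mdm2 with Eda2r.

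Other p53 targets gave a broader view, from a list of 36 written from general knowledge, of which 35 were tested. Perp, a membrane protein gene, had too few counts. In Xap5 KO 13 rose and 8 fell, in Nono KO 18 rose and 5 fell, and in Sox5 KO 16 rose and 9 fell. Of all tested genes, 23.2%, 23.5% and 30.6% rose and 22.3%, 25.1% and 30.3% fell in the same order. The list medians were 0.09, 0.26 and 0.22, beside 0.00, -0.02 and -0.01 over all tested genes. With library totals the splits were 12 and 8, 13 and 6, and 13 and 10. In all 3 knockouts 10 of the 35 rose (Aen, Ak1, Btg2, Cdkn1a, Dram1, Ei24, Fas, Gtse1, Plk2 and Plk3) and 2 fell (Cd82 and Sesn1), beside 8.33% and 7.61% of all tested genes.

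Cdkn1a, the p21 gene whose pair of half-sites is printed above, had 170 and 175 CPM in WT. Its level was 231, 235 and 204 CPM in Xap5 KO, 274, 285 and 297 in Nono KO, and 285, 290.5 and 279 in Sox5 KO. All 9 KO libraries lay above both WT libraries. The log2 fold changes were 0.37 (SE 0.0647, edgeR adjusted p = 7.04e-05), 0.73 (SE 0.0653, edgeR adjusted p = 7.69e-09) and 0.72 (SE 0.0654, edgeR adjusted p = 4.56e-09). Plk2, a kinase gene, rose most among these 10 in Xap5 and Nono KO and second to Ak1 in Sox5 KO, from 62.3 and 71.7 CPM in WT to 205 to 241 in Xap5 KO, 354 to 396 in Nono KO and 129 to 140.02 in Sox5 KO. Its log2 fold changes were 1.76, 2.47 and 1.02 (edgeR adjusted p at most 4.33e-10).

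Not every classical target followed. Pmaip1, the gene of the BH3-only protein NOXA, fell from 4.44 and 6.08 CPM in WT to 1.05 to 1.37 in Xap5 KO (-2.15, SE 0.303, edgeR adjusted p = 5.65e-06) and to 0.608 to 0.790 in Nono KO (-2.87, SE 0.314, edgeR adjusted p = 1.54e-07). It was not called in Sox5 KO (-0.21, edgeR adjusted p = 0.557). Sesn1, the sestrin 1 gene, fell by 0.94, 0.49 and 0.72 on the log2 scale in Xap5, Nono and Sox5 KO, where its paralog Sesn2 rose. Cd82, a tetraspanin gene, fell by 0.69, 0.81 and 0.78. Ptprv, a phosphatase gene, rose in Xap5 KO (0.84) and Nono KO (2.84) but was at -0.03 in Sox5 KO (edgeR adjusted p = 0.881). Tigar, whose product lowers glycolysis, fell in Xap5 KO (-1.65), and Pltp, a lipid transfer protein gene, was at -0.67, 0.75 and -1.25, called each time.

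Values for the other 8 genes of the list that rose in all 3 knockouts follow in the order Xap5, Nono and Sox5 KO. Btg2, an antiproliferative gene, was at 0.56, 1.81 and 0.42, and Ak1, an adenylate kinase gene, at 0.67, 0.73 and 1.20. Dram1, an autophagy gene, was at 0.61, 0.93 and 0.55, and Ei24, linked to autophagy too, at 0.40, 0.87 and 0.62. Fas, the death receptor gene, was at 0.74, 0.22 and 0.82, Gtse1 at 0.51, 0.70 and 0.65, Aen, a nuclease gene, at 0.26, 0.37 and 0.73, and Plk3 at 0.48, 0.40 and 0.60. Single libraries decided the calls of Aen and Plk3 in Xap5 KO and of Plk3 and Fas in Nono KO, where both were also lost with library totals (0.24 and 0.058), and without WT replicate 2 those of Ei24 in Xap5 KO (0.30) and Btg2 in Sox5 KO (0.34). Exons of Cdkn1a, Ei24, Plk3, Tigar, Pltp and Ptprv overlap a gene on the opposite strand, so their counts are uncertain where reads could be mixed.

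**Figure D4:**
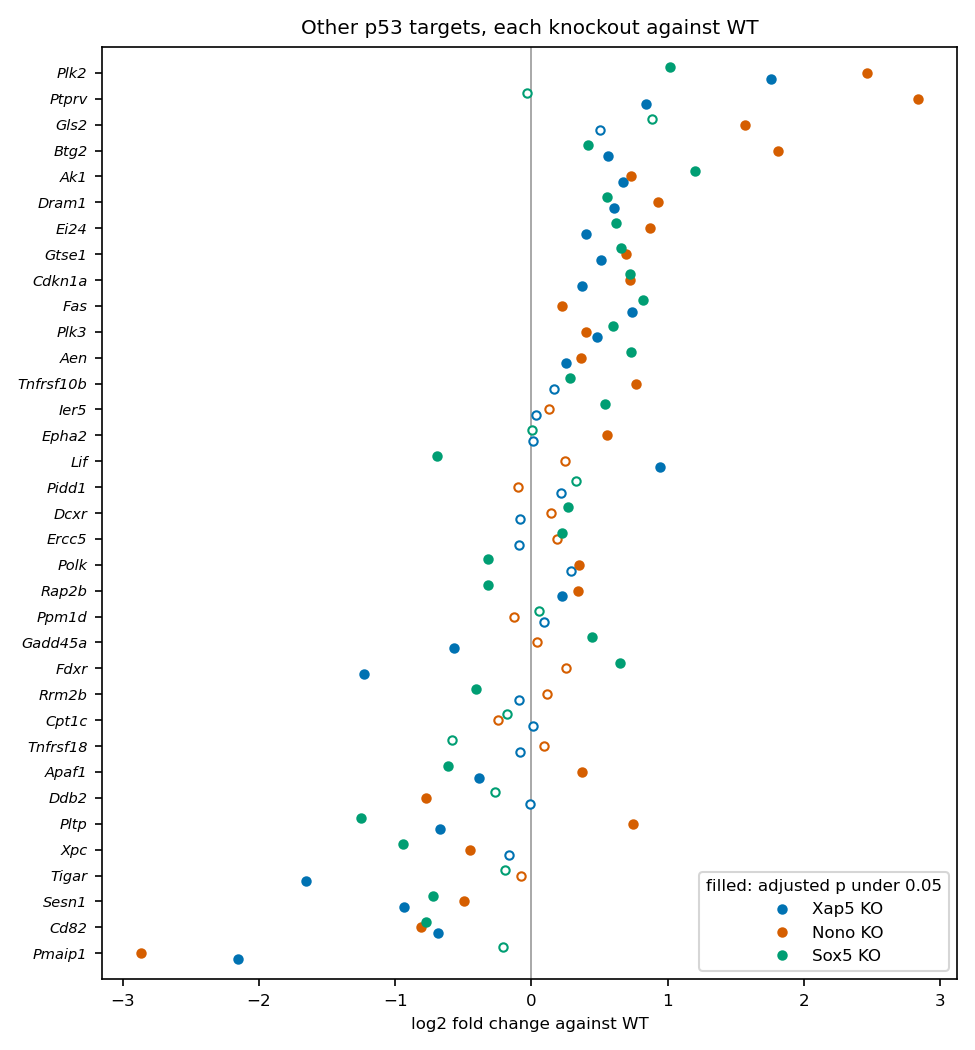
Log2 fold change against WT (x axis) of the 35 other p53 targets tested, ordered by their mean over the 3 knockouts, with 1 colour per knockout, filled for an adjusted p under 0.05. Plk2 lies at the upper end in all 3 (1.76, 2.47 and 1.02) and Pmaip1 at the lower end in Xap5 and Nono KO (-2.15 and -2.87).

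Genes that act on p53 were listed with its family, and of 21 listed, 19 were tested. In Xap5 KO 1 rose and 6 fell, in Nono KO 2 rose and 8 fell, and in Sox5 KO 4 rose and 12 fell, with list medians of -0.08, -0.10 and -0.39 beside 0.00, -0.02 and -0.01 over all tested genes. Trp63 was the only rise in Xap5 KO and was among the rises in Nono and Sox5 KO. With 0 counts in both WT libraries it passed the filter on low counts only through knockout libraries, so against WT it could only be called as a rise. The share of the list called was 36.8%, 52.6% and 84.2%, beside 45.5%, 48.6% and 60.9% of all tested genes, of which 22.3%, 25.1% and 30.3% fell. With library totals the splits were 1 and 6, 1 and 10, and 2 and 13. The chromosome median and the length and GC correction were not applied to this list. It holds genes that restrain p53, such as Mdm4, as well as others such as Hipk2, so its median has no direction for p53. In all 3 knockouts Sirt1 fell, the deacetylase gene, by 1.08, 0.96 and 1.30 on the log2 scale, as did the ASPP genes Ppp1r13b, by 1.19, 0.58 and 2.18, and Trp53bp2, by 0.44, 0.43 and 0.39. Sirt1 overlaps a gene on the opposite strand. Hipk2, a kinase gene whose product phosphorylates p53, was at -1.27 in Nono KO (edgeR adjusted p = 0.00547) and -2.31 in Sox5 KO (edgeR adjusted p = 0.000159). Its value of -0.43 in Xap5 KO was not called (edgeR adjusted p = 0.241). The same -0.43 was called without Sox5 KO replicate 1, a library of neither group, and why was not tested. Mdm4, the partner of Mdm2 in holding p53 back, was at -0.34 in Xap5 KO (edgeR adjusted p = 0.00140), 0.00 in Nono KO (edgeR adjusted p = 0.983) and -0.24 in Sox5 KO (edgeR adjusted p = 0.0113), the last lost without WT replicate 2 (-0.25). Mdm4 was added for its role after its values were seen.

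Trp63, the gene of the p53 relative p63, had 0 counts in both WT libraries and low counts in all 9 KO libraries. It had 14, 8 and 9 counts in Xap5 KO, 36, 39 and 34 in Nono KO, and 17, 9 and 20 in Sox5 KO. Set against a floor of 3 counts in each WT library, the mean Trp63 level in Xap5 KO was 3.68-fold that floor. The same ratio was 13.0 for Nono KO and 6.87 for Sox5 KO. These ratios use the KO means and leave out the spread and counting error of the KO libraries, so they are not lower limits. These counts are a fraction of 1 CPM, so they describe a trace of RNA. Cdkn2a had 0 counts in all 11 libraries, where 3 counts correspond to 0.0681 to 0.102 CPM. Trp73 was not tested, with at most 6 counts in a library.

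The list of 14 cell cycle genes that p21 is known to lower, all tested, had more members that rose than fell in each knockout, where Cdkn1a RNA was higher too. In Xap5 KO 12 rose and 1 fell, in Nono KO 10 rose and 0 fell, and in Sox5 KO 9 rose and 1 fell, beside 23.2%, 23.5% and 30.6% of all tested genes that rose and 22.3%, 25.1% and 30.3% that fell. The list medians were 1.16, 0.73 and 0.53, beside 0.00, -0.02 and -0.01 over all tested genes. Without WT replicate 2, 6 were called in Nono KO and 5 in Sox5 KO. In all 3 knockouts 7 rose: Aurkb, Birc5, Ccnb1, Ccnb2, Cdc20, Ect2 and Plk1, beside 8.33% of all tested genes. Without WT replicate 2, Aurkb (0.18), Birc5 (0.52) and Ccnb2 (0.54) lost their call in Nono KO, and Aurkb (0.44) and Ect2 (0.17) lost theirs in Sox5 KO. Aurkb in Nono KO was also lost without Xap5 KO replicate 2, Nono KO replicate 1 or 2, or Sox5 KO replicate 1 or 3, and Ect2 in Sox5 KO without Sox5 KO replicate 1 or 3. With library totals Aurkb in Nono KO and Ect2 in Sox5 KO (both 0.22) were lost. Ccnb1, the mitotic cyclin B1 gene, was at 1.34, 0.99 and 0.74, and Plk1, a mitotic kinase gene, at 1.36, 0.77 and 1.17. Birc5 (survivin) was at 1.33, 0.73 and 1.25, Ccnb2 at 0.96, 0.79 and 1.89, and Cdc20, an activator of the anaphase ligase, at 1.20, 1.30 and 0.58. Kif23, a kinesin gene of cytokinesis, was at 1.14 and 0.95 in Xap5 and Nono KO and at 0.02 in Sox5 KO, not called there. The 2 falls, named after their values were seen, were Cdk1 in Xap5 KO (-0.33, edgeR adjusted p = 0.0344) and Mki67 in Sox5 KO (-0.55, edgeR adjusted p = 0.0332), and each lost its call without single libraries, the WT libraries among them. Plk1 and Cdc20 overlap a gene on the opposite strand.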

How the data were processed

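The authors deposited 1 table of gene counts for the 11 libraries, per the file headers. The values were whole numbers but were taken as estimated counts rounded by the authors, because the value 2 occurs 3302 times and the value 1 only 857 times; no further rounding was needed. Per the submitters' processing notes, the tools were HISAT2 2.1.0, StringTie 1.3.3b and DESeq2 1.12.4 on build GRCm39 (mm39). Which annotation was used and how strand was handled are not given in the sources used here. Gene lengths, GC content, chromosomes and overlaps came from GENCODE M21 (GRCm38) by gene ID, for 21540 of 21684 IDs, and no coordinate of the counts' own build is printed.

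All 11 libraries were fitted together in edgeR 4.0.16 (R 4.3.3) with TMM factors, edgeR's expression filter (minimum count 10, minimum total 15), robust quasi-likelihood dispersions, 1 mean per group and no replicate block. P-values were adjusted by Benjamini-Hochberg over 13332 genes, and the threshold was 0.05. Tested genes had a median count of 1002 and a common biological coefficient of variation of 10.6%, so replicate spread sets the precision for most genes. Intervals of the fold are given as SE, and the floor of 3 counts covers counting error only.

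The genes and lists were chosen with earlier results of these data known, and the lists came from general knowledge. Beside the 10 genes, the rule for naming took Cdkn1a, Cdkn2a, the targeted genes, every listed gene called the same way in all 3 knockouts, the 3 called genes of each list with the largest change per knockout, and the 5 genes most like Trp53 and Mdm2. Alternatives were DESeq2 1.42.0, limma-voom (limma 3.58.1), other scalings, filters and thresholds, a chromosome median, a length and GC offset (99.7% of tested genes had both values), a replicate block and each library left out. For the wider lists only DESeq2, library totals, no filter on low counts and each library left out were run.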

Additional observations from a re-analysis of the deposited data

How the results depend on the processing

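The 10 genes gave 690 values against WT under 23 alternatives, 483 for a change that was called and 207 for one that was not. Of the called, 439 kept call and direction, 42 lost the call and 2 turned in direction. Of those not called, 14 gained a call and 12 took the other sign without a call (Eda2r and Mdm2 in Nono KO, Mdm2 in Sox5 KO, and Trp53 and Zmat3 in Xap5 KO). Both called values that turned were Zmat3 in Sox5 KO, at 0.044 relative to the chromosome median and 0.35 with the length and GC offset, against -0.18. Between Xap5 and Sox5 KO, Zmat3 turned to -0.043 and -0.28 under the same settings, and Phlda3 to 0.13 with the length and GC offset. The cause was not tested. Requiring a 1.5-fold change left 4, 2 and 3 genes called in Xap5, Nono and Sox5 KO against WT, and 3, 2 and 3 in Xap5 against Nono, Xap5 against Sox5 and Nono against Sox5 KO. Leaving out each library in turn, 5 to 7, 5 to 6 and 6 to 9 of the 10 genes were called against WT in Xap5, Nono and Sox5 KO. The cell cycle genes lowered through p21 gave 6 to 12 calls in Nono KO and 5 to 11 in Sox5 KO, both lowest without WT replicate 2. The 33 named genes of the lists were refitted only with DESeq2, library totals, no filter on low counts and each library left out. The chromosome median and the length and GC offset, under which Zmat3 turned, were not applied to them. Under those fewer settings they gave 1288 values for called changes, of which 1255 kept the call, 33 lost it and 0 turned. Of 98 for changes not called, 1 gained a call and 17 took the other sign without one.

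Whether replicate numbers pair the libraries was not settled. Over 15 same-number pairs the correlation of deviations from the group means ran from -0.02 to 0.05, and 0 were over 0.1. Between other numbers it ran from -0.05 to 0.02, and 10 of 11 libraries correlated best with one of their own number. Deviations from the mean of 2 or 3 libraries are tied to each other, so these values cannot decide it. With a replicate block, 6, 7 and 8 of the 10 genes were called in Xap5, Nono and Sox5 KO, with Phlda3 in Xap5 KO lost (-0.14, edgeR adjusted p = 0.0748) and Trp53inp1 in Nono KO gained. With 2 WT libraries, a single one of them can decide small changes, and depth did not limit the 10 genes.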
